A study of Mus musculus with 2 samples.

Results

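Polycomb repressive complex 2 (PRC2) is described here through the accessible chromatin at the 9 mouse genes that encode its subunits: the catalytic genes Ezh1 and Ezh2, the core genes Eed, Suz12, Rbbp4 and Rbbp7, and the accessory genes Jarid2, Mtf2 and Phf1. These 9 are taken by name from the 21853 protein-coding genes of the GENCODE mouse annotation on mm10, and each was found there once. The data are ATAC-seq, in which a transposase inserts adapters into open DNA, from G1E-ER4, a mouse erythroid line derived from a male C57BL/6J animal at a postnatal age of 0 days per the labels. The cells lack a working Gata1 gene of their own and carry GATA1 fused to an estrogen receptor domain, so that estradiol brings the erythroid factor GATA1 into play. The 2 libraries are biological replicates 1 and 2 of a single group: 50000 cells each, all of them exposed to 17beta-estradiol at 10 nM for 24 hours. The line is 1 clone, and nothing in the labels says how the cultures were separated, so the spread between the libraries may be technical. Untreated cells were not analysed here, so no value below is a change upon induction.

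PRC2 places methyl groups on lysine 27 of histone H3, the mark of Polycomb silencing. EZH2 or EZH1 supplies the methyltransferase activity, EED reads the mark and switches the enzyme on, SUZ12 is the scaffold, and RBBP4 and RBBP7 bind histones. JARID2, MTF2 and PHF1 bring the complex to chromatin. EZH2 is typical of dividing progenitors and EZH1 of more mature cells, and during red cell maturation the balance is known to move from EZH2 to EZH1, a shift called the EZH switch.

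Values come from the authors' peak lists, and the number of reads behind them is unknown. A region is a peak or a run of overlapping peaks, and it is called a promoter region where its summit lies within 1 kb of a start site of a protein-coding transcript of the gene. A region whose summit is that near to another gene's start is a neighbour's promoter, and any other region with its summit within 50 kb of the gene body is distal. The main list is the authors' conservative list of 20080 regions, which passed an irreproducible discovery rate (IDR) of 0.05 between the replicates. Signal is the authors' enrichment value per peak, compared only within a list. A percentile gives the share of promoter regions in the same list with an equal or lower signal. The pseudoreplicated list of each library, which has no IDR threshold, held 31850 regions for replicate 1 and 35591 for replicate 2. The thresholded list of each library held 14012 and 15564. Of 11 erythroid marker genes in the annotation 10 had a conservative promoter region, beside 41.9% of all protein-coding genes, Alas2 being the exception. Their median percentile was 32.2, beside 57.2 for all genes with a promoter region. Slc4a1 had one in the thresholded list of replicate 1 only, Klf1 in that of replicate 2 only and Tal1 in neither. None of the 4 T cell, 4 B cell, 5 macrophage and granulocyte and 3 hepatocyte markers had a conservative promoter region. Of 3 fibroblast markers Col1a1 did, although it had none in the thresholded list of either library.

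The promoter sequences of the catalytic pair are shown first, since the direct comparison is made at these promoters. Both are from the RefSeq promoter table on GRCm38.p6 (mm10), on the minus strand of the chromosome and so 5′ to 3′ in the direction of transcription, without annotated untranslated bases. The Ezh2 stretch, chr6:47595059-47595183, lies upstream of the RefSeq start and within an intron of transcripts that start further upstream. The Ezh1 stretch, chr11:101226464-101226713, is the sequence upstream of the first exon. The summit of the Ezh1 region, chr11:101226420 in the replicated list, lies in that exon and so outside the printed stretch. Capitals mark CCAAT or its complement in Ezh2, and in Ezh1 the complement of AGGTGGC, a short piece of the CTCF motif. That Ezh1 string lies outside the Ezh1 region of either library's pseudoreplicated list, though within the wider region of the replicated list.
Ezh2 promoter: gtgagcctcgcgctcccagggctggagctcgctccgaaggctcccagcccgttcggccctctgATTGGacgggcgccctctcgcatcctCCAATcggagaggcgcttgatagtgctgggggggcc
Ezh1 promoter: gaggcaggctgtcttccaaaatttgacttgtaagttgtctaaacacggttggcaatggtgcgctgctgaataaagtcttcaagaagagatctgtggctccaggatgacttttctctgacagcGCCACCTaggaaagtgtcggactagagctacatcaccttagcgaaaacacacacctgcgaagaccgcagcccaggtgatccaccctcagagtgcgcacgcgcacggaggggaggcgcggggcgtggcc

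By each gene's strongest promoter region, Ezh2 was among the higher of the 9 genes in both libraries and Ezh1 was the lowest. The Ezh2 region, chr6:47594908-47595584, had a signal of 16.6 in the conservative list, at the 74.7 percentile, with its summit at −68 bp from the nearest start site. The Ezh1 promoter was absent from the conservative list and from the thresholded list of each library, and Ezh1 was the only one of the 9 genes without a promoter region in these 3 lists. A narrower Ezh1 region, chr11:101226311-101226598, stood in the replicated list and in the optimal list, which is thresholded on pseudoreplicates of the pooled libraries. Its summit lay 6 bp downstream of a start site, in the untranslated first exon. The signal was 8.93, at the 41.6 percentile of the replicated list and the 23.6 percentile of the optimal list. Between the replicates its global IDR was 0.294, above the threshold of 0.05, whereas between the pooled pseudoreplicates it was 0.0133.

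In the pseudoreplicated list of each library, which held both promoters, the Ezh2 signal was 14.3 in replicate 1 and 15.01 in replicate 2. The Ezh1 signal was 8.79 in replicate 1 and 5.27 in replicate 2. Ezh2 was thus higher in both libraries, its lower value lay above the higher value of Ezh1, and the 2 libraries differed more for Ezh1 than for Ezh2. As percentiles among the promoter regions of the same library, Ezh2 stood at 77.0 and 80.3, or 78.6 ± 2.37 (SD, n = 2). Ezh1 stood at 40.7 and 17.6, or 29.1 ± 16.3 (SD, n = 2). Ezh1 minus Ezh2 was −36.3 percentile points in replicate 1 and −62.7 in replicate 2, a mean of −49.5 ± 18.7 (SD, n = 2). An exact two-sided permutation test of the 2 values against 2, which takes no account of the shared libraries, gave p = 0.333, the smallest it allows. With the difference paired within each library, exact sign changes gave p = 0.5, again the smallest they allow, so neither exact test can reach 0.05 here. The −log10 p of the peak was 50.1 and 58.4 for Ezh2 and 15.9 and 7.63 for Ezh1, in replicates 1 and 2. The Ezh1 region was 228 and 205 bp wide in the 2 libraries and the Ezh2 region 660 and 694 bp. In bulk libraries, a site open in fewer cells and a site less open in each cell cannot be told apart.

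**Figure D1:**
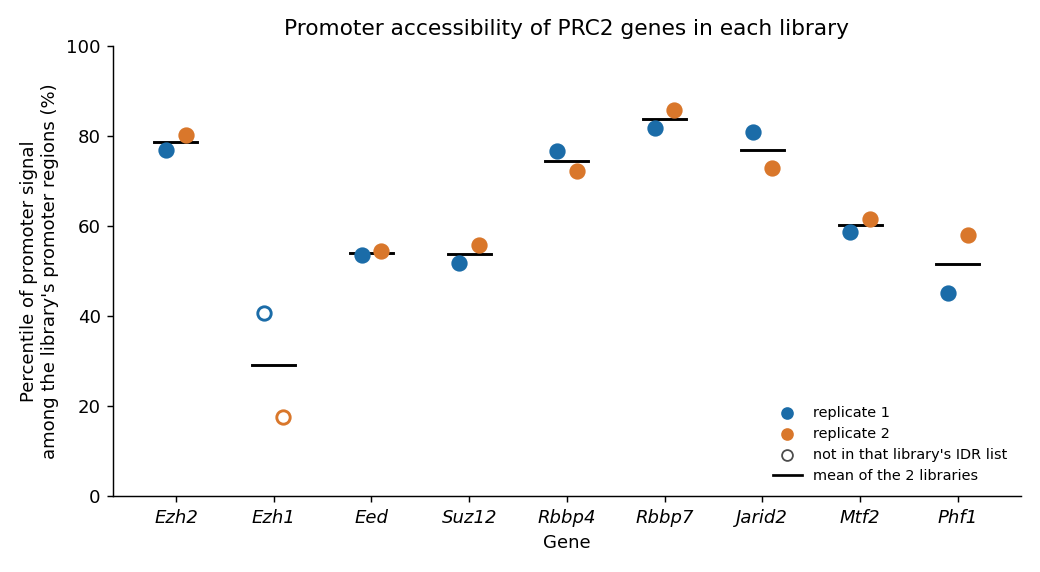
Percentile of each gene's promoter signal (y axis, %) among the promoter regions of the same library's pseudoreplicated list, for the 9 genes (x axis). Points are the 2 libraries and bars their mean; open points were not in that library's thresholded list. Ezh1 is lowest in both libraries, at 40.7 and 17.6, and is the only gene with open points.

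Away from the start sites the pair differed the other way in strength. The only conservative distal region of Ezh1, chr11:101189730-101190444, had a signal of 15.6, at the 92.5 percentile of distal regions. It lay 1 kb beyond the 3′ end of Ezh1 and 36.3 kb from its nearest start site, in the 3′ untranslated exon of the neighbouring gene Cntnap1. The signal was 14.01 in replicate 1 and 13.2 in replicate 2, and the region was in the thresholded list of both. Which gene, if any, it acts on was not tested. Ezh2 had 2 conservative distal regions, both inside its introns and both weak. One, chr6:47560938-47561229, lay 34.2 kb into the gene with a signal of 7.03, at the 18.3 percentile of distal regions. The other, chr6:47565495-47566035, lay 29.6 kb into the gene with a signal of 6.42, at the 12.6 percentile. Neither was in the thresholded list of either library, although both were in the pseudoreplicated lists. The first had signals of 5.93 and 6.64 in replicates 1 and 2, and the second 5.41 and 5.42.

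The 2 intronic Ezh2 windows are printed because they are the only distal sequence that the conservative list gives to Ezh2. Each is the summit base with 100 bases on either side, on the minus strand, chr6:47560997-47561197 and chr6:47565679-47565879 in mm10. Capitals mark TGACTCA, the AP-1 pattern, and the second window held none of the 13 patterns searched, in which GATA is AGATAA alone.
Ezh2 intron, 34.2 kb: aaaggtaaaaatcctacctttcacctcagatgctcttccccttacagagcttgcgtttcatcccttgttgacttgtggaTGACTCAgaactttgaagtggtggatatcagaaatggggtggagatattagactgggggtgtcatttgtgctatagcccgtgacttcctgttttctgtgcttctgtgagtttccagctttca
Ezh2 intron, 29.6 kb: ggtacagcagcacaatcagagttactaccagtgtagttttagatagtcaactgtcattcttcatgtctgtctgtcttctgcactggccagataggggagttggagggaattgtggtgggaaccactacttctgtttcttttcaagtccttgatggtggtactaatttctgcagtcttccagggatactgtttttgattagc

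The looser lists added further regions at both genes. For Ezh1, a region 5.9 kb upstream of the gene, chr11:101232076-101232563, was in the optimal and the replicated list with a signal of 7.65. It appeared in the pseudoreplicated list of replicate 1 with a signal of 6.35 and of replicate 2 with 5.75, where it stood at the 57.6 and 46.9 percentile of distal regions. An intronic region of Ezh1, chr11:101199521-101199962, had a signal of 5.42 in the replicated list and appeared for replicate 2 alone, with 4.79. A region 33.0 kb upstream, chr11:101259311-101259559, had 3.81 in the replicated list and appeared for replicate 1 alone, with 4.98. For Ezh2, a second promoter region of low signal, 3.99, lay 1.0 kb inside the gene in the replicated list and was seen for replicate 2 alone, with 4.57. An intergenic region 33.0 kb upstream of Ezh2, chr6:47628042-47628496, had a signal of 5.74 there and of 4.39 and 4.31 in replicates 1 and 2. One at 38.3 kb upstream was in the pooled pseudoreplicated list, with 4.14, and in the archived replicated list, with 3.14. The count of distal regions gave no fixed order of the pair, since the looser lists add regions at both genes and the thresholded list of each library lacks the 2 intronic regions of Ezh2. It was 1 for Ezh1 against 2 for Ezh2 in the conservative list, 2 against 1 in the optimal list, 4 against 3 in the replicated list and 1 against 0 in the thresholded list of either library. The map of the 2 loci shows neighbouring promoters in the Ezh1 window, among them those of Plekhh3 (21.8 in the conservative list), Vps25 (12.4) and Wnk4 (9.79), and none in the Ezh2 window.

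**Figure D2:**
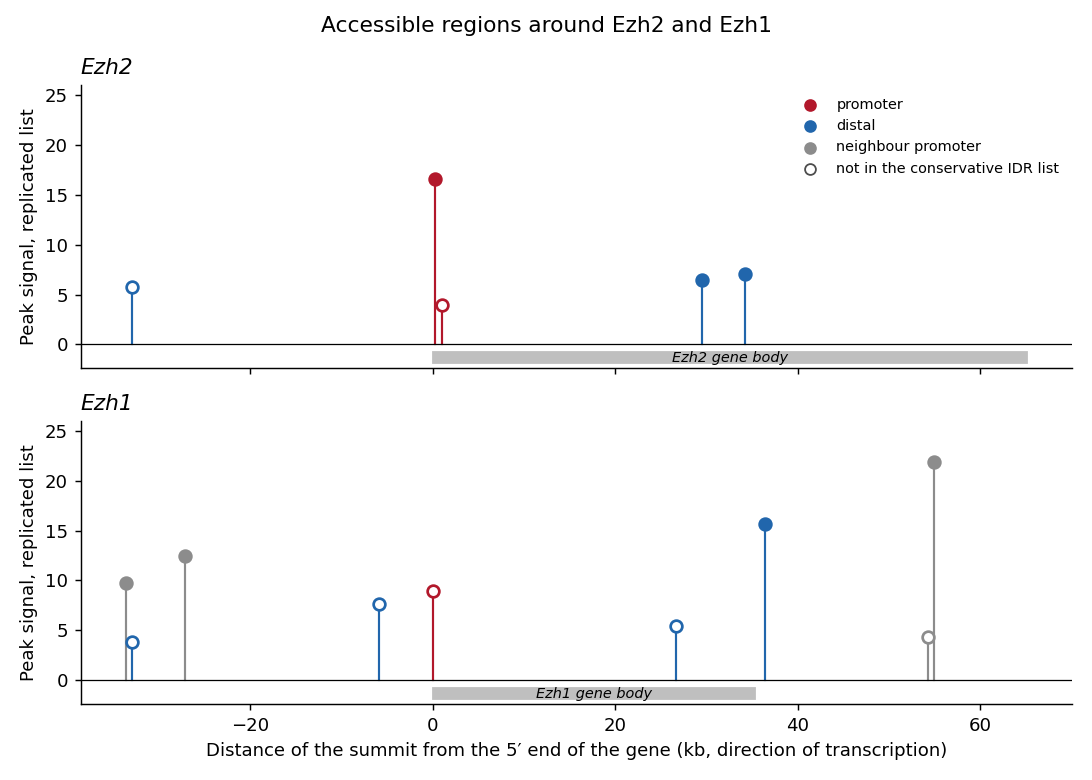
Signal of regions in the replicated list (y axis) against the distance of the summit from the 5′ end of Ezh2 (top) and Ezh1 (bottom), in kb along the direction of transcription; open points are not in the conservative list and grey bars are gene bodies. The promoter point is tall and filled for Ezh2 (16.6) and short and open for Ezh1 (8.93), while the tallest distal point is in the Ezh1 panel (15.6), beyond the gene body.

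Each of the 4 core genes had a conservative promoter region that was also in the thresholded list of both libraries. Rbbp7, on the X chromosome, was the strongest of all members: chrX:162759909-162760544 had a signal of 18.2, at the 83.7 percentile, with 15.1 in replicate 1 and 16.1 in replicate 2. Among the core genes its paralog Rbbp4 was next, with 15.3 at chr4:129335170-129336103, the 66.4 percentile, and 14.3 and 13.7 in the libraries. The Rbbp4 region is also the promoter region of the divergent gene Zbtb8os, so its signal cannot be given to either gene alone. Eed and Suz12 were lower and close together. Eed, at chr7:89980245-89981424, had a signal of 11.7, the 40.7 percentile, with 10.7 and 10.9 in the libraries. Suz12, at chr11:79992516-79993385, had 11.3, the 37.7 percentile, with 10.4 and 11.04. The Eed region also covers the start of E230029C05Rik, a noncoding gene on the other side, and was 1180 bp wide. The median conservative promoter region was 600 bp wide, with quartiles of 443 and 777 bp, and the Eed, Mtf2 (1001 bp), Rbbp4 (934 bp) and Suz12 (870 bp) regions were above the upper quartile.

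The distal regions of the core genes varied between the libraries. Suz12 had no distal region in any thresholded, replicated or pseudoreplicated list, other than the archived replicated list, where it had 5. Eed had 3 in the conservative list, with signals of 9.03 at chr7:89908034-89908268, 9.70 at chr7:89998072-89998492 and 8.91 at chr7:90022922-90023412. The first, 46.5 kb beyond the 3′ end, was in the thresholded list of both libraries, the second of replicate 1 only and the third of replicate 2 only. The last 2 lie in introns of E230029C05Rik. Rbbp4 had 2 strong regions beyond its 3′ end. The stronger, chr4:129276316-129276844, had a signal of 16.8, at the 95.0 percentile of distal regions, with 11.9 in replicate 1 and 15.5 in replicate 2, and only replicate 2 held it in its thresholded list. The other, chr4:129263399-129264025, had 13.6, with 11.2 and 11.7 and a place in both thresholded lists, and lies within 1 kb of a start of the noncoding gene Gm12976. Rbbp7 had neighbouring regions of 10.6 and 8.88 upstream, at chrX:162735488-162735954 and chrX:162736240-162736632, both within 1 kb of a start of the noncoding gene Gm15201. The first was in the thresholded list of replicate 1 only and the second in neither.

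Among the accessory genes, Jarid2, which helps to recruit PRC2, had the strongest promoter region. It lies at chr13:44730492-44731069, 1.2 kb inside the longest gene model, at another of the 8 start sites of Jarid2. Its signal was 15.8, at the 70.1 percentile, with 14.97 in replicate 1 and 13.8 in replicate 2. A second, weaker promoter region at chr13:44731169-44731435 had 6.94, at the 11.2 percentile, and was in neither thresholded list. Mtf2, whose protein binds DNA rich in CpG, had 14.4 at chr5:108065386-108066386, the 60.7 percentile, with 11.4 and 11.9 in the libraries. Phf1, whose Tudor domain reads methylated histone H3, had 12.5 at chr17:26932873-26933470, the 47.4 percentile. Its libraries were further apart, with 9.44 in replicate 1 and 11.4 in replicate 2.

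The strongest distal region of any member in the conservative list was in Jarid2. This intronic region, chr13:44869502-44869704, lies 140.1 kb into the gene and 28.9 kb from the nearest Jarid2 start site, and had a signal of 18.5, at the 97.2 percentile of distal regions. It was narrow, at 203 bp against a median of 420 bp for distal regions. The libraries differed, with 11.2 in replicate 1 and 17.2 in replicate 2, and only replicate 2 held it in its thresholded list. The archived replicated list held no region at this place. The other distal region of Jarid2, chr13:44733860-44734122, had 4.22, and the only one of Mtf2, chr5:108029247-108029492, had 7.76, and both were in neither thresholded list. Phf1, the shortest gene at 4.86 kb, had 3 distal regions, and all 3 were in both thresholded lists. Those upstream, chr17:26884926-26885304 with a signal of 13.1 and chr17:26886100-26886427 with 9.58, lie 47.9 and 46.8 kb from the gene within noncoding genes.

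**Figure D3:**
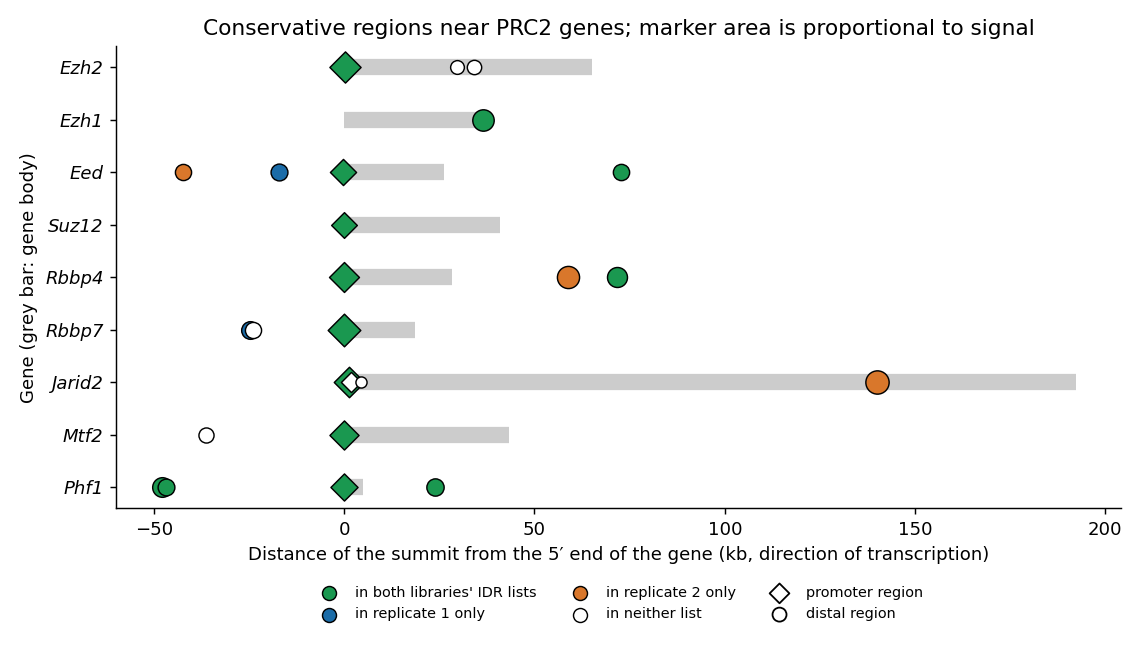
Conservative promoter (diamond) and distal (circle) regions of the 9 genes by distance of the summit from the 5′ end of the gene (x axis, kb along the direction of transcription); marker area is proportional to signal, colour shows which library's thresholded list holds the region, and grey bars are gene bodies. The diamonds are green except the weaker one of Jarid2, Ezh1 has none, and the circles are of every colour.

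As a set, 8 of the 9 genes had a conservative promoter region, where 41.9% of all protein-coding genes had one. The count was 8 in the thresholded list of replicate 1 (38.5% of all genes) and 8 in that of replicate 2 (39.6%), with Ezh1 missing each time. It was 9 in the optimal list (42.3%), the replicated list (46.5%) and the archived replicated list (54.1%). The 8 genes' strongest promoter regions had a median percentile of 63.6, from 37.7 to 83.7, beside a median of 57.2 over the 9165 genes with a promoter region. At least 1 distal region lay within 50 kb of 8 of the 9 genes, where 50.5% of all genes had one, Suz12 being without. The members had 16 distal regions in all and a median of 2, beside a median of 1 over all genes. Of all genes, 29.7% had at least 2 such regions and 16.6% at least 3, as Eed and Phf1 did. The total was 35 in the replicated list, 8 and 9 in the thresholded lists of replicates 1 and 2, and 10 where starts of noncoding transcripts were also taken as promoters. The mean per gene was 1.78 for the members and 1.18 for all genes in the conservative list, and 3.89 and 3.39 in the replicated list. It was 0.889 and 0.640 in the thresholded list of replicate 1 and 1.00 and 0.772 in that of replicate 2. In the archived replicated list it was 10.2 and 9.93, so the members were near all genes there.

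The share of regions found in both libraries was read against that of all regions. Of the 9 conservative promoter regions 8 were in the thresholded list of both libraries, where 80.7% of all conservative promoter regions were. Of the 16 distal regions 6 were in both, where 42.7% of all were. A further 2 were in that of replicate 1 only, 3 in that of replicate 2 only and 5 in neither. These shares are near those of all regions.

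Ordered by the mean percentile of the 2 libraries, Rbbp7 came first with 83.8 ± 2.73 (SD, n = 2), followed by Ezh2 with 78.6 ± 2.37, Jarid2 with 76.9 ± 5.67 and Rbbp4 with 74.4 ± 3.13. Mtf2 stood at 60.1 ± 1.99, Eed at 54.1 ± 0.566, Suz12 at 53.9 ± 2.77, Phf1 at 51.5 ± 9.13 and Ezh1 at 29.1 ± 16.3 (SD, n = 2 each). The libraries' values of Jarid2 overlapped those of Ezh2 and of Rbbp4, while Ezh2 stood above Rbbp4 in both libraries. The values of Eed, Suz12 and Phf1 overlapped one another. They did not overlap between Rbbp7 and Ezh2, between Rbbp4 and Mtf2, between Mtf2 and Eed, or between Phf1 and Ezh1. These are descriptions, and no neighbouring pair was tested. Ezh1 also had the widest gap between the libraries, at 23.1 percentile points, followed by Phf1 with 12.9.

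**Figure D4:**
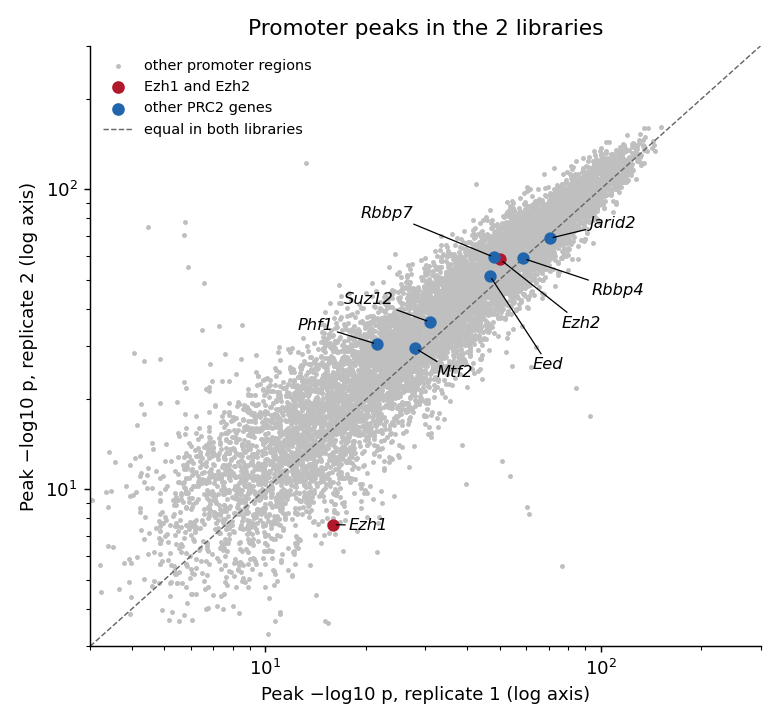
Peak −log10 p of promoter regions of the replicated list in replicate 1 (x axis) and replicate 2 (y axis), both on log axes, for the 10361 regions found in both libraries' pseudoreplicated lists; the dashed line marks equal values. Ezh1 (15.9 and 7.63) lies below and to the left of the other 8 genes and below the line, while Ezh2 (50.1 and 58.4) lies above the line.

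The letters under the summits were searched for 13 short patterns on both strands, in windows of 201 bp. For the GATA factors the letters AGATAA were used, and the composite named E-box GATA has CTG placed 7 to 9 bases before those letters. For E2F either TTTCCCGC or else TTTGGCGC or else TTTCGCGC counted. ETS was searched as CCGGAAGT, NRF1 as CGCATGCG, YY1 as AAGATGGC, KLF as CCACACCC and SP as GGGCGG. CRE was searched as TGACGTCA, RUNX as TGTGGTTT, the AP-1 pattern as TGACTCA, and CTCF as AGGGGGC or its variant AGGTGGC, and the box CCAAT stands for itself. Each E-box GATA match is also a GATA match. A match is a string of letters, not a shown binding site. CCAAT was in 6 of the 9 conservative promoter regions of the members, beside 37.1% of all 9497 promoter regions, with 3 matches at Ezh2. SP was in 5 of 9, beside 61.7%, and GATA in 0 of 9, beside 4.18%. The Ezh1 promoter window of the replicated list held SP alone among the 13.

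E2F was found at Ezh2 and Mtf2, 2 of 9 promoter regions, beside 2.70% of all promoter regions. E2F factors drive genes of the cell cycle, and the 2 matches are printed as short sites, chosen after the matches were seen. Each is the match in capitals with 11 bases on either side in the direction of the gene: chr6:47595009-47595038 on the minus strand, across a start of Ezh2, and chr5:108065710-108065739 on the plus strand at a start of Mtf2.
Ezh2 E2F match: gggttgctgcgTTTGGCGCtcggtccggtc
Mtf2 E2F match: accgctagtccGCGGGAAAccaaaatggcg

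The RefSeq promoter windows of 300 bases were matched for all 9 genes, and those of Ezh1 and Ezh2 were both rich in CpG. The observed-to-expected CpG ratio was 0.999 for Ezh2 and 0.882 for Ezh1, both above the median of 0.384 over 32851 promoters, and the GC content was 64.3% and 59.3%. The Ezh2 window held E2F and CCAAT and the Ezh1 window CTCF alone, patterns present in 1.84%, 37.4% and 16.0% of these promoters. In these windows E2F was also found at Suz12 and was not found at Mtf2, unlike in the windows around the summits. The Mtf2 window at that start ends at chr5:108065723, within the match printed above, and so cuts through it.

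GATA was in 2 of the 16 distal regions, beside 25.5% of all 10583 distal regions, in windows near Rbbp4 and Phf1. The Rbbp4 window is printed because the line is driven by GATA1: chr4:129276492-129276692, on the plus strand of mm10, with AGATAA in capitals. Its single match lies near the edge of the window and is lost with 50 bases on each side of the summit. The Phf1 window, not printed, held 2 matches, and its region was in the thresholded list of both libraries. The strong Ezh1 and Jarid2 distal windows held no GATA match. With 200 bases on each side of the summit, 6 of the 16 distal windows held GATA, beside 36.0% of all, and 2 of the 9 promoter windows, beside 8.61% of all.
Rbbp4 distal: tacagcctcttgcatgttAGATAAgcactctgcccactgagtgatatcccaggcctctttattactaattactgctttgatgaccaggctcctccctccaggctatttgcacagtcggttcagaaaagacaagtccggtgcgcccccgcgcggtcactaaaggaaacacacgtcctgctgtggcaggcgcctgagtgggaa

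Of 32 other Polycomb genes in the annotation, 20 had a conservative promoter region, beside 41.9% of all genes. PRC1, which ubiquitinates histone H2A, had 14 of 22, the PR-DUB complex, which removes that ubiquitin, 3 of 3, the H3K27 demethylases 1 of 3 and the remaining accessory genes of PRC2 2 of 4. Their strongest regions had a median percentile of 28.9, beside 63.6 for the PRC2 members and 57.2 for all genes with a promoter region. The strongest by role were L3mbtl2 of PRC1 with a signal of 19.3, Kdm6a with 15.8, Asxl1 of PR-DUB with 13.4 and the PRC2 cofactor Lcor with 6.44. No conservative promoter region was found at the PRC2 accessory genes Phf19 and Epop, at PRC1 genes that include Bmi1, Pcgf2, Cbx2, Cbx6, Cbx8, Scmh1 and Bcor, or at the demethylase genes Kdm6b and Uty. Cbx7, whose protein reads H3K27 methylation for PRC1, had one with a signal of 10.2. Kdm6b had 6 distal regions within 50 kb and no promoter region. Bmi1 and Bcor had a promoter region in the replicated list, as Ezh1 did.

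**Figure D5:**
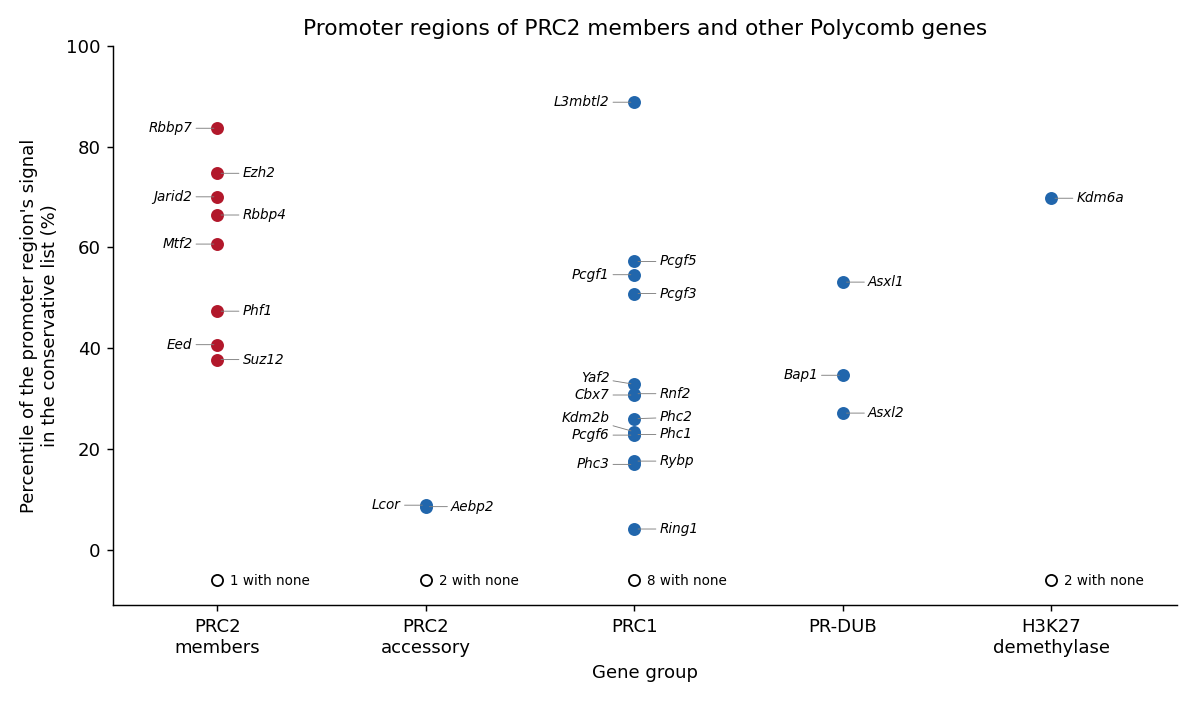
Percentile of each gene's strongest promoter region among promoter regions of the conservative list (y axis, %), for the PRC2 members and 4 groups of other Polycomb genes (x axis); open points below 0 give the number of genes with no promoter region and are not values. The PRC2 members with a region run from 37.7 to 83.7, and the highest point of all is the PRC1 gene L3mbtl2 at 88.8.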

How the data were processed

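Peak lists from 2 ATAC-seq libraries of G1E-ER4 cells and from their combinations were used, 13 in all. Per the labels and the deposited file lists, the authors called peaks on mm10 for each library, for pseudoreplicates and for pooled libraries, and compared replicates by IDR. One replicated list, archived and made from other inputs, was read as an alternative. No aligner or caller, and no shift of read ends, is given in the sources used here. The deposited signal of a peak is the authors' enrichment value, and its scaling is not given. The deposited −log10 p is that of the peak, and the score column of the IDR-ranked lists, as deposited, gives the global IDR on a −log10 scale. Read depth is unknown, so no counting interval is given, and precision rests on the 2 libraries.

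Overlapping peaks were merged, each region being represented by its strongest summit. Start sites were those of protein-coding transcripts in GENCODE release M21, and sequence came from RefSeq GRCm38.p6, and no peak ran past the end of its chromosome there. Regions of different lists were matched where they overlapped by at least 50% of the shorter. The planned comparison of Ezh1 with Ezh2 used the thresholded lists of the libraries. These hold no Ezh1 promoter region, so the pseudoreplicated lists were used. All 9 genes were described with their conservative regions, and Ezh1 and Ezh2 with every region, and some items are not reported here. Members, lists and patterns were chosen with earlier results of these data known. The counting code was run on simulated regions planted inside the promoter window, and 200 of 200 were recovered. The run involved no IDR step, so it checks the code and not the lists. Python 3.11.15, numpy 2.4.6, pandas 2.3.3 and pysam 0.24.0 were used. Alternatives covered the list, either library, the promoter window, the distance, the start sites, the summit rule, signal and IDR thresholds, merging, the overlap and the motif window.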

Additional observations from a re-analysis of the deposited data

How the results depend on the processing

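The number of members with a promoter region was 8 or 9 under every alternative run. The percentile of Ezh1 was below that of Ezh2 in each alternative run for it. The difference was −62.7 to −36.3 points when either library was left out and −51.99 to −41.8 otherwise. The alternatives of regions above the median signal and of a global IDR below 0.01 gave no such value, because no Ezh1 promoter region remained. The percentile difference was run on the pseudoreplicated lists of the libraries only. In the replicated list Ezh1 stood at the 41.6 percentile and Ezh2 at 81.1, and in the pooled pseudoreplicated list at 41.8 and 81.2. In the archived list they stood at 70.6 and 86.0, closer together. The number of distal regions near the members, 16, moved to 35 in the replicated list, 92 in the archived list, 36 in the pooled pseudoreplicated list, 7 within 20 kb, 25 within 100 kb, 10 with start sites of all transcripts and 5 above the median signal, and was 8 or 9 with either library alone. The difference of Ezh1 minus Ezh2 distal regions, −1, turned to 1 in the optimal and replicated lists, above the median signal, at a global IDR below 0.01 and with either library alone (1 to 1). It was 0 in the pooled pseudoreplicated list, −2 within 100 kb and 0 without merging. The other Polycomb genes with a promoter region, 20, fell to 7 above the median signal and were 15 to 18 with either library alone, by alternatives chosen after seeing the data. Member regions with a GATA match, 2 of 25, were 1 with 50 bases and 8 with 200 bases on each side of the summit, of which 1 and 6 were distal, where 14.9% and 36.0% of all distal and 2.11% and 8.61% of all promoter regions had one. The cause of these changes was not tested, beyond the fewer or more regions each setting admits. With the library as a replicate block, an alternative added after seeing the data, the difference was −49.5 points, with an exact sign-change permutation p of 0.5. Read depth is unknown, so an absent region cannot be told from one below detection.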
